A study of Homo sapiens with 3 samples.

Results

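The 8 genes described here encode transcriptional regulators of the developing kidney, namely PAX2, PAX8, LHX1, SIX2, WT1, EYA1, SALL1 and GATA3. They were taken by name from the deposited gene values, which hold 23284 genes, and all 8 were found. The values come from 293T, a line grown from human embryonic kidney that carries adenovirus DNA and the SV40 large T antigen. Cells of all 3 conditions expressed dCas9-VP64, a cleavage-dead Cas9 joined to the activator VP64. In the mock library it was coexpressed with a mock sgRNA, and in the other 2 libraries with sgL1ASP #1 or sgL1ASP #3, guides directed to the antisense promoter (ASP) in the 5′ end of the L1 retrotransposon. The study compared these transcriptomes to find genes related to L1 ASP activation, and the 8 genes are read here as a description of the line. There was 1 library per condition, so no p-value is given, and the time from transfection to RNA extraction is not given in the sources used here. The unit is FPKM, in which a gene's fragments are divided by its exon length and by a measure of the library's size. Levels of different genes can therefore be set side by side. Genes above 0 numbered between 16440 and 16693 per library, and the depth was estimated at 8670000 to 10400000 reads.

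The kidney forms from interacting embryonic tissues. The nephric duct sends out the ureteric bud, which branches into the collecting system, and the surrounding metanephric mesenchyme holds the nephron progenitors that turn into epithelium and build the glomerulus and the tubules. SIX2 keeps nephron progenitors in a self-renewing state, EYA1 is a phosphatase and coactivator of the same pathway, SALL1 is a zinc finger protein of the same mesenchyme, and WT1 is a zinc finger protein first needed there and later in podocytes. PAX2 and PAX8 are paired box proteins of the nephric duct and of the early nephron, LHX1 is a LIM homeobox protein needed in the duct and in the renal vesicle, and GATA3 is a zinc finger protein of the duct and the ureteric bud.

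The 8 genes ranged from abundant to at or near 0 in the same libraries. FPKM reached at least 1 in all 3 libraries for 5 of them (62.5%), which were SIX2, SALL1, GATA3, WT1 and LHX1, while 53.0% of all genes did so. PAX2 and EYA1 were low, and PAX8 was listed at 0 in 2 libraries. The mean FPKM of SIX2 was 45.3 times that of EYA1, the lowest of the 7 genes with a value in every library. The ranges over the 3 libraries did not overlap between neighbours in the order SIX2, SALL1, GATA3, WT1, LHX1, except that PAX2 and EYA1, next in the order, overlapped each other.

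**Figure D1:**
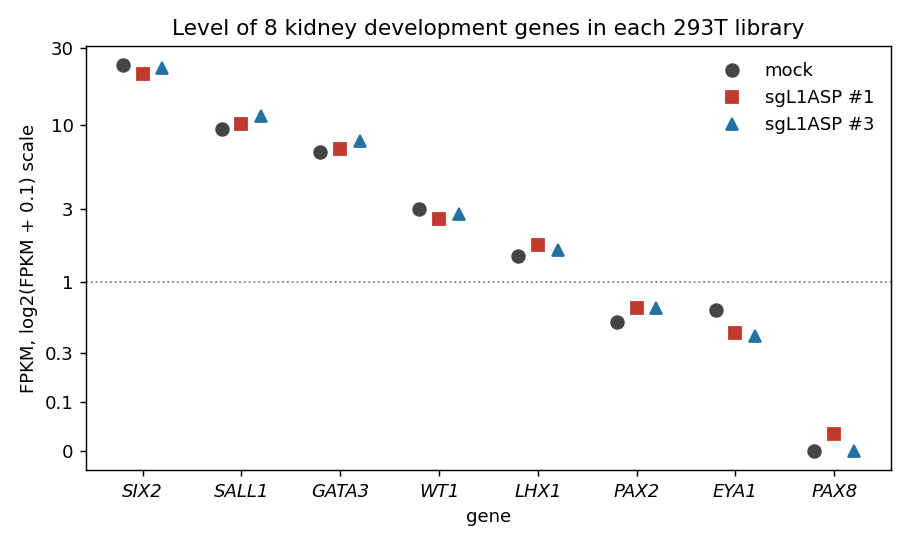
FPKM of each of the 8 genes (horizontal axis, ordered by mean) in the mock, sgL1ASP #1 and sgL1ASP #3 libraries, 1 point per library, on a log2(FPKM + 0.1) scale with the ticks given as FPKM and a dotted line at 1. SIX2 sits between 20.9 and 23.6 and PAX8 at or near 0, and within each gene the 3 libraries lie close together.

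SIX2 was the most abundant of the 8 genes. Its FPKM was 23.6 in the mock library, 20.9 with sgL1ASP #1 and 22.6 with sgL1ASP #3, above 80.8% to 82.7% of all genes in each library. The gene (ENSG00000170577) spans 45232321 to 45236591 of chromosome 2, minus strand, in GRCh37 (hg19), the build the reads were mapped to. It has 2 exons and a single annotated transcript of 2206 bases, and between 393 and 494 reads were estimated for it per library.

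SALL1, on the minus strand of chromosome 16 from 51169893 to 51186245, had FPKM 9.56 in the mock library, 10.2 with sgL1ASP #1 and 11.4 with sgL1ASP #3. Mock was the lowest and sgL1ASP #3 the highest, with an estimated 489 to 516 reads. GENCODE also lists a processed pseudogene of this gene, SALL1P1, and reads that match both cannot be told apart in these values. WT1, on the minus strand of chromosome 11 from 32409321 to 32457110, had FPKM 3.01 in the mock library, 2.57 with sgL1ASP #1 and 2.77 with sgL1ASP #3. Its level in each library was near the middle of all genes, above 52.3% to 53.7% of them. WT1-AS, an RNA gene on the opposite strand that overlaps the 5′ end of WT1 and runs from 32457064 to 32522178, had FPKM 1.38 in the mock library, 1.18 with sgL1ASP #1 and 0.753 with sgL1ASP #3, from an estimated 11, 9 and 5 reads, a log2 change from mock of -0.22 and -0.80. The libraries were counted by strand, which keeps WT1 and WT1-AS apart.

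EYA1 was the lowest of SIX2, SALL1, WT1 and EYA1, the regulators grouped here with the mesenchyme. On the minus strand of chromosome 8 from 72109668 to 72504260, it had FPKM 0.642 in the mock library, 0.432 with sgL1ASP #1 and 0.407 with sgL1ASP #3. About 27, 18 and 14 reads lay behind these values, and the exact 95% Poisson intervals of these counts, 17.8 to 39.3, 10.7 to 28.4 and 7.65 to 23.5, overlapped. Intervals and read numbers here rest on the estimated depth and cover counting error only.

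Among GATA3, LHX1, PAX2 and PAX8, the regulators grouped here with the duct, GATA3 was the most abundant and PAX8 the least. GATA3, on the plus strand of chromosome 10 from 8087341 to 8117161, had FPKM 6.78 in the mock library, 7.17 with sgL1ASP #1 and 7.96 with sgL1ASP #3, above 63.2% to 65.8% of all genes. LHX1, on the plus strand of chromosome 17 from 35294084 to 35301912, had FPKM 1.48 in the mock library, 1.76 with sgL1ASP #1 and 1.63 with sgL1ASP #3. Both were detected in every library, LHX1 with an estimated 46 to 59 reads.

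PAX2, on the plus strand of chromosome 10 from 102495153 to 102589701, had FPKM 0.522 in the mock library, 0.654 with sgL1ASP #1 and 0.658 with sgL1ASP #3, from an estimated 22, 27 and 23 reads. It stayed under FPKM 1 in all 3 libraries. PAX8, on the minus strand of chromosome 2 from 113973574 to 114036498, was listed at 0 in mock and in sgL1ASP #3 and had FPKM 0.0281 in sgL1ASP #1, about the value of 1 read (0.025). A count of 0 allows up to 3 reads by a one-sided limit (3.69 as the upper bound of the interval used for EYA1), and 3 reads are FPKM 0.075 in mock and 0.09 in sgL1ASP #3. PAX8 was thus at or near the detection floor in every library at this depth.

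SIX2 and PAX8 stand at the opposite ends of the order and lie on the same chromosome, so the 250 bases before the annotated start of each are shown, with every CG dinucleotide in capitals. CG reads the same on both strands. The sequences are those of RefSeq in GRCh38.p14, where the SIX2 window is chr2:45009453-45009702 and the PAX8 window chr2:113278922-113279171, both on the minus strand and printed 5′ to 3′.
SIX2: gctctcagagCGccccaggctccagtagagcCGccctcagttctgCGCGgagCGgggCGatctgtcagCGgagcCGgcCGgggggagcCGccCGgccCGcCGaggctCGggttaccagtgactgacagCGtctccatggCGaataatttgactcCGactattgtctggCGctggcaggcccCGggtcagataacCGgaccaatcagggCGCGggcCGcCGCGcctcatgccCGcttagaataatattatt
PAX8: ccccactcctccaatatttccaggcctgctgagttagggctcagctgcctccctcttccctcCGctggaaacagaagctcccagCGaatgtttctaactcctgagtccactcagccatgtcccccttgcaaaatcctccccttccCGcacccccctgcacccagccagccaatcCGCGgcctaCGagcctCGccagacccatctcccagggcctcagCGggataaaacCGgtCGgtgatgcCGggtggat
The SIX2 window held 26 CG, more than 80.4% of the 35116 promoter windows in the table, whose median was 11, and its GC content was 65.6%. The PAX8 window held 11 CG, more than 49.7% of all windows, with a GC content of 61.6%. The table had entries for 5 of the 8 genes (SIX2, PAX8, PAX2, WT1 and GATA3), 14 windows in all. For the low gene PAX2 both windows held 10 and 15 CG, whereas the windows of the detected genes WT1 and GATA3 ranged from 3 to 30. A CG dinucleotide was present in 93.9% of all windows, and which start these cells used was not measured.

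Against the mock library, none of the 8 genes was called past 1.5-fold in either direction on the log2(FPKM + 0.1) scale. The study used the same fold in another rule, for upregulation only, from mock to sgL1ASP #3 and from sgL1ASP #3 to sgL1ASP #1. Among all genes with mean FPKM at least 1, 3.55% passed this fold with sgL1ASP #1 and 3.8% with sgL1ASP #3, so that 0 of the 5 such genes here is close to what the rest gave. Among genes with mean FPKM above 0 and under 1, the share was 35.6% with sgL1ASP #1 and 36.1% with sgL1ASP #3, and 0 of PAX2, EYA1 and PAX8 passed. For PAX8, with 1 estimated read with sgL1ASP #1 and 0 in mock and sgL1ASP #3, the pseudocount set this outcome. This class also holds genes with fewer reads than PAX2 and EYA1, so its share is not matched to them. Between both guides, 3.77% of the genes of the higher class and 37.2% of the lower class passed, and again 0 of the 8 genes. Both comparisons with mock share the mock library. Without replicates, the spread between cultures of the same condition is unknown.

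The changes of SALL1 and SIX2 were the most precisely counted. The log2 change of SALL1 was 0.25 with sgL1ASP #3, with a standard error from counting alone of 0.092, and 0.09 with sgL1ASP #1, which became -0.007 when the FPKM of all libraries were brought to an equal sum. That of SIX2 was -0.18 with sgL1ASP #1, with a counting error of 0.095, and -0.06 with sgL1ASP #3. GATA3 differed from mock by 0.23 with sgL1ASP #3, with a counting error of 0.14, and by 0.08 with sgL1ASP #1, which became -0.013 after the same rescaling. For WT1 the log2 change was -0.22 with sgL1ASP #1 and -0.11 with sgL1ASP #3, each with a counting error of 0.23. LHX1 differed by 0.24 and 0.14, less than its counting errors of 0.28 and 0.3.

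EYA1 came nearest to the fold, and its values rest on few reads. Its log2 change was -0.48 with sgL1ASP #1 and -0.55 with sgL1ASP #3, with counting errors of 0.44 and 0.48. The counting errors of all these genes are those of a log2 ratio with no pseudocount. On that scale the changes of EYA1 were -0.572 and -0.659. As a plain ratio of FPKM with no pseudocount, mock was 1.49 times sgL1ASP #1 and 1.58 times sgL1ASP #3, the latter past the fold. With all libraries brought to an equal FPKM sum, the log2 changes of EYA1 were -0.59 and -0.69, both past it. PAX2 had a log2 change of 0.28 and 0.29, or 0.327 and 0.334 with no pseudocount, with counting errors of 0.42 and 0.43. PAX8, with 1 estimated read in all, had 0.36 with sgL1ASP #1 and 0.00 with sgL1ASP #3, values set by the pseudocount. The median log2 change of the 5 genes in the higher class was 0.08 with sgL1ASP #1 and 0.14 with sgL1ASP #3, and over all genes of that class it was 0.001 in both comparisons.

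Several of the 8 genes belong to families in which a paralog was more abundant. Of the 9 PAX genes, 3 reached FPKM 1 in every library, and PAX2 and PAX8 were not among them. PAX3, a regulator of neural crest and muscle precursors, had a mean FPKM of 6.19, PAX6, known from the eye and the nervous system, 3.53, and PAX9, known from the pharyngeal pouches and teeth, 2.72. PAX2 made up 3.79% to 4.98% of the summed FPKM of the family. EYA1 was the lowest of the 4 EYA genes, at 2.37% to 3.33% of their sum, while EYA3 had a mean FPKM of 11.5, EYA4 4.88 and EYA2 1.22.

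SIX2 led its family of 6 with 44.1% to 46.3% of the summed FPKM. SIX5 had a mean FPKM of 9.19 and SIX4 3.88, whereas SIX3 had 0.768 and SIX6 was listed at 0. All 4 SALL genes reached FPKM 1 in every library, with SALL2 at 14.1, SALL1 at 10.4, SALL4, a gene of pluripotent cells, at 5.27 and SALL3 at 2.66. GATA3 was exceeded by GATA2, GATA4 and GATA6 among the 6 GATA genes. GATA2 had a mean FPKM of 18.6, GATA4 9.87, GATA6 8.35, GATA3 7.31 and GATA5 4.56, and GATA1 was listed at 0.

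LHX1 lay in the middle of the 12 LIM homeobox genes, 8 of which had FPKM at least 1 in every library. The motor neuron gene ISL2 had a mean FPKM of 13.4, LMX1B, a podocyte and limb regulator, 3.72, ISL1 3.6, LHX2 3.29, LHX4 2.47, and LHX6 and LHX8 1.52 each, against 1.62 for LHX1. WT1 was set beside the EGR genes, whose zinc fingers resemble its own, and held 71.2% to 81.3% of the summed FPKM of these 5 genes. EGR1, EGR2, EGR3 and EGR4 each had a mean FPKM under 1.

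**Figure D2:**
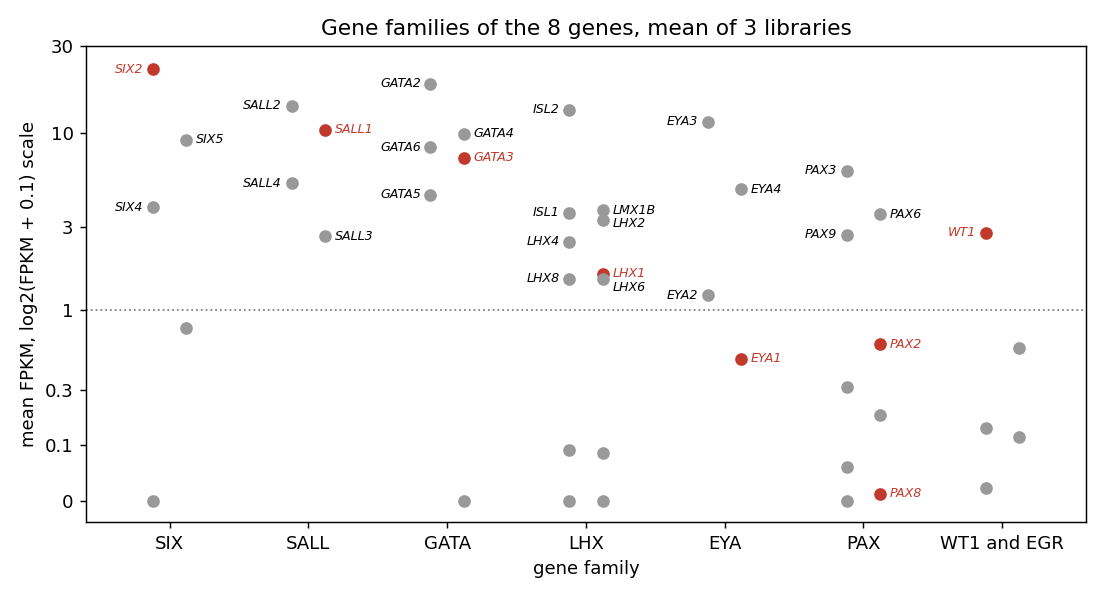
Mean FPKM over the 3 libraries of members of the gene families (horizontal axis) to which the 8 genes belong, on a log2(FPKM + 0.1) scale with the ticks given as FPKM, the 8 genes in red and their relatives in grey, named where the mean is at least 1. SIX2 tops its family, while PAX2, PAX8 and EYA1 lie under the dotted line at 1 with relatives above it.

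Other transcription factors of kidney development also ranged from abundant to listed at 0. Of 36 listed, 19 reached FPKM 1 in every library and 5 were listed at 0 in all 3, with a median of 2.59 against 2.01 for all genes. Over all genes, 53.0% reached FPKM 1 in every library, close to the share here, and 24.2% were listed at 0 in all 3. The most abundant were FOXC1, a forkhead gene of the early mesoderm, with a mean FPKM of 42.9, HOXD11, which patterns the metanephros, with 30.8, TFAP2A with 18.2, and FOXD1, the marker of renal stromal progenitors, with 17.6. Of the 20 with mean FPKM at least 1, FOXC2 (FPKM 0.904 in the mock library, 1.57 with sgL1ASP #1 and 1.24 with sgL1ASP #3) was past 1.5-fold with sgL1ASP #1 and 0 were past it with sgL1ASP #3. Among all genes of this level, 3.55% and 3.8% were past it.

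The genes were then set out by the tissue in which each is known to act, a grouping made after the values had been seen and given no test. Several of them act in more than 1 of these tissues. Of 12 genes of the metanephric mesenchyme and nephron progenitor, 9 had FPKM at least 1 in every library, with a median of 8.15. Beside SIX2, SALL1 and WT1 these included CITED1, a marker of the uninduced progenitor, at 11.7, HOXC11 at 10.4 and HOXA11 at 5.95, while OSR1, the earliest gene of the renal lineage, had 0.358. Its FPKM was 0.564 in the mock library, 0.172 with sgL1ASP #1 and 0.34 with sgL1ASP #3, past the fold below mock with both guides, in the class under FPKM 1 where 35.6% and 36.1% of all genes were past it. Of 14 genes of the nephric duct and ureteric bud, 7 reached FPKM 1 in every library, with a median of 0.906. WNT11 had a mean FPKM of 5.04, SOX8 4.26, SOX9 3.14 and EMX2 2.05, but ETV4 and ETV5, targets of RET signalling, had 0.0157 and 0.0704. Of 6 genes of the renal stroma, 5 reached FPKM 1, among them TBX18 at 4.2, and TCF21 was listed at 0 in all 3 libraries. Without the 8 genes themselves the medians were 8.15 for the mesenchyme and 0.828 for the duct. Over all genes, 53.0% reached FPKM 1 in every library, and the median was 2.01.

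Some signals that pass between these tissues are named here after their values had been seen. GDNF, the mesenchymal ligand that draws out the ureteric bud, had FPKM 0.0828 in the mock library, 0.14 with sgL1ASP #1 and 0.233 with sgL1ASP #3. Its receptor RET had FPKM 1.14, 1.22 and 1.24 in the same order, and the coreceptor GFRA1 had 0.491, 0.546 and 0.334. WNT4, which drives the mesenchyme to become epithelium, had a mean FPKM of 0.0621, and WNT9B, the bud signal that acts before it, 0.0505.

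Over the whole list of 20 ligands, 10 had FPKM at least 1 in every library, where 53.0% of all genes did. VEGFA led with a mean FPKM of 103, followed by BMP7, a survival factor of nephron progenitors, with 14.5, SLIT2 with 10.3 and DLL1 with 7.34. Of the 14 receptors 10 reached FPKM 1, with ITGB1 at 25.1, NOTCH2, needed for proximal nephron fates, at 19.6, FGFR1 at 16.6 and FGFRL1 at 8.73. Of the 14 modulators 9 did, with FSTL1 at 59.5, GPC3, a heparan sulfate proteoglycan, at 29.7, CITED2 at 18.0 and CITED1 at 11.7.

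The kidney development lists together held 51 genes with mean FPKM at least 1 outside the 8. Of these, 2 were past 1.5-fold above mock with sgL1ASP #1 (FOXC2 and NPNT), 1 with sgL1ASP #3 (NPNT), and 0 were past it below mock with either guide. Among all genes of this level 3.55% and 3.8% were past the fold with sgL1ASP #1 and sgL1ASP #3, in both directions together, so these counts are near the background. NPNT, the nephronectin gene, whose product is the ligand of integrin alpha 8, had FPKM 0.509 in the mock library, 1.75 with sgL1ASP #1 and 0.933 with sgL1ASP #3, and was the only listed gene with mean FPKM at least 1 to pass the fold on the same side of mock with sgL1ASP #1 and with sgL1ASP #3. The median log2 change of the 51 genes was 0.05 with sgL1ASP #1 and 0.02 with sgL1ASP #3.

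Most genes for proteins that work with the 8 regulators had RNA at FPKM 1 or more. Of 27 cofactors followed, 23 had FPKM at least 1 in every library, with a median of 11.5, against 53.0% and 2.01 for all genes. HDAC1 had a mean FPKM of 201, RBBP7 200 and MTA1 81.9, subunits of the NuRD complex that SALL1 recruits, and WTAP, found as a binding partner of WT1, had 73.4. PAXIP1, which links PAX2 to histone methylation, had 24.5, and LDB1, the partner of LIM domain proteins, had 37.4. Of the 25 cofactors with mean FPKM at least 1, 0 were past 1.5-fold with sgL1ASP #1 and 2 with sgL1ASP #3, EYA2 and DACH1, both below mock, where 3.8% of all genes of this level were past it. FPKM of EYA2 was 1.43 in the mock library, 1.35 with sgL1ASP #1 and 0.872 with sgL1ASP #3, and that of DACH1 was 1.38, 1.22 and 0.865.

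Markers of the mature nephron were near 0 for the most part. Of 38 markers of 4 nephron segments, 7 reached FPKM 1 in every library and 15 were listed at 0 in all 3. Over all genes these shares were 53.0% and 24.2%. Of the 10 podocyte markers 4 reached FPKM 1. Among them PODXL had a mean FPKM of 3.28, NES 3.25 and SYNPO 1.4, while the slit diaphragm gene NPHS1 had 0.0199, and the summed FPKM of the list was 17.1 in the mock library, 17.5 with sgL1ASP #1 and 15.4 with sgL1ASP #3. Of the 10 proximal tubule markers 2 reached FPKM 1, with ALPL at 3.01, LRP2, the endocytic receptor megalin, at 1.24, SLC5A2, the main renal glucose carrier, at 1.16, AQP1 at 1.07 and CUBN, the partner of LRP2, at 0.0691. SLC5A2 had FPKM 0.816 in mock, 1.58 with sgL1ASP #1 and 1.08 with sgL1ASP #3, past the fold above mock with sgL1ASP #1. The phosphate carrier SLC34A1 was listed at 0.

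Further along the nephron, 0 of the 8 markers of the loop of Henle and distal tubule reached FPKM 1, and UMOD and SLC12A1, which define the thick ascending limb, were listed at 0 in every library. KCNJ1 had the highest mean, 0.451, followed by PVALB with 0.192, SLC12A3 with 0.0622 and TRPM6 with 0.0538. Of the 10 collecting duct markers 1 reached FPKM 1 in every library. This was AQP3, a water channel, with FPKM 3.38 in the mock library, 1.57 with sgL1ASP #1 and 2.27 with sgL1ASP #3, past the fold below mock with sgL1ASP #1. The summed FPKM of the collecting duct list was 5.01, 3.03 and 3.35 in these libraries, with AQP3 the largest part in each. Of the 10 markers, 5 were listed at 0 in every library. ATP6V1B1, a proton pump subunit of intercalated cells, had FPKM 1.43, 1.28 and 0.86 in the same order, past the fold below mock with sgL1ASP #3, and SLC26A4 had a mean of 0.153, while AQP2, SCNN1B and SCNN1G were listed at 0. Over all 4 segments, 10 markers had mean FPKM at least 1. Of these, only SLC5A2 and AQP3 passed the fold with sgL1ASP #1, in opposite directions, and only ATP6V1B1 with sgL1ASP #3. Among all genes of this level, 3.55% passed with sgL1ASP #1 and 3.8% with sgL1ASP #3.

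Because this line has also been compared with cells of the adrenal gland and the nervous system, markers of both were followed. Of 15 adrenal medulla and sympathoadrenal markers 4 had FPKM at least 1 in every library, namely GATA2 at 18.6, HAND1 at 14.4, INSM1 at 6.32 and PNMT, which makes adrenaline, at 3.18. The defining regulator PHOX2A had 0.0213, and TH, the first enzyme of catecholamine synthesis, had 0.02. Of 10 adrenal cortex markers 1 reached FPKM 1, NR0B1 at 3.51, while NR5A1, the master regulator of steroid-producing cells, had 0.113, STAR 0.0695, MRAP 0.125 and CYP17A1 0.0882.

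Of 20 neural progenitor and neuron markers 9 reached FPKM 1 in every library, where 53.0% of all genes did. The median over the list was 0.563. INA, a neurofilament gene, had a mean FPKM of 31.5, SYP 19.1, NEFL 9.29 and TUBB3 6.55. TUBB3, a neuronal tubulin, was past the fold below mock with sgL1ASP #1, with a log2 change of -0.66. It was the only 1 of the 9 genes with mean FPKM at least 1 to pass with this guide, where 3.55% of all such genes passed. The progenitor genes SOX2 and PAX6 had 2.48 and 3.53, and SOX1 had 0.0163. Some further genes of this list are named after their values had been seen. DCX, ELAVL3 and ELAVL4, genes of young neurons, had 0.0328, 0.00711 and 0, whereas NEFM and RBFOX3 had 5.91 and 4.81. The median of the 8 kidney genes was 2.2, close to the 2.01 of all genes. PAX6, NES and GATA2 each stand on more than 1 of the lists named here.

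Of the 9 epithelial and cell shape markers 5 had FPKM at least 1 in every library. The intermediate filament genes VIM, which marks mesenchymal cells, KRT8 and KRT18 had mean FPKM 858, 69.4 and 60.1, and CDH2, the cadherin of the metanephric mesenchyme and proximal tubule, had 17.3. The first 3 genes of the list, CDH1, EPCAM and CDH16, had 0.119, 0.338 and 0.0129. CLDN4 and KRT19, named after their values had been seen, complete the list. CLDN4 had a mean FPKM of 2.14, and KRT19 was listed at 0. Of 7 endothelial markers 0 reached FPKM 1, with KDR highest at 0.125, CDH5 at 0.0847 and PECAM1 at 0.0752. Of 8 stromal fibroblast markers 1 did, COL1A1 at 2.33, with COL3A1 at 0.304 and COL1A2 listed at 0. Of 7 immune cell markers 2 did, among them CD68 at 3.23, and PTPRC and CD3E were listed at 0. In a bulk sample, fewer cells that express a gene and less RNA of it per cell cannot be told apart.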

How the data were processed

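The authors made stranded mRNA libraries, mapped single-end reads to hg19 (TopHat 2.0.13 running Bowtie2 2.2.3, with SAMtools 0.1.19), and deposited FPKM per gene from Cuffdiff (Cufflinks 2.2.1). The gene annotation is not given in the sources used here. All 3 libraries were assigned to their condition from the labels.

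FPKM were used as deposited. Changes were taken as differences of log2(FPKM + 0.1), which understates those of low genes, and a fold over 1.5 counted as past the threshold, separately for genes with mean FPKM at least 1 and under 1. Reads were estimated from FPKM, GENCODE 44 canonical transcript lengths on GRCh37 less 200 bases, and a depth read from the most common spacing of low values (within 3%) of genes with 1 transcript over 1000 bases (37 to 62 genes per library). The genes and lists were chosen with earlier results of these data known. Named were all 8 genes, paralogs with mean FPKM at least 1, the 4 highest genes of each list, the first 3 of each marker list, genes with mean FPKM at least 1 past the fold with both guides, and others where said. Some genes that this rule names are not reported here, although the list counts include them. KMT2D and 7 RNA genes could not be matched by name, and KMT2C was matched as MLL3. Alternatives were pseudocounts of 0.01, 1 and none, 2 rescalings, a fold of 2 and other FPKM minimums. Scripts ran in Python 3.11.15 with pandas 2.3.3, NumPy 2.4.6, matplotlib 3.10.9 and SciPy 1.17.1.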

Additional observations from a re-analysis of the deposited data

How the results depend on the processing

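No paired analysis was possible because there was 1 library for each condition, and for the same reason no replicate could be left out. The ratio with no pseudocount was chosen after seeing the data. Of the 8 genes, 0 passed the fold in each comparison. With a pseudocount of 0.01 there was 1 in each comparison with mock and 1 between the guides (PAX8 with sgL1ASP #1 against either library, EYA1 with sgL1ASP #3 against mock), and the log2 change of PAX8 went from 0.36 to 1.93 in both of its comparisons. With no pseudocount there was 1 with sgL1ASP #3 (EYA1), and with each library rescaled to an FPKM sum of 1000000 there was 1 with either guide (EYA1). A pseudocount of 1, the median ratio, a fold of 2 and the filter at mean FPKM 1 left 0. The rescaling to equal sums multiplied the levels by 1.613 (mock), 1.512 (sgL1ASP #1) and 1.485 (sgL1ASP #3), and the median over all genes of the higher class became -0.092 with sgL1ASP #1 and -0.117 with sgL1ASP #3. The direction changed for SALL1 and GATA3 with sgL1ASP #1 and for PAX2 between the guides (-0.006 to 0.017), and for no other change of the 8 genes above 0.

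The number of the 8 genes at FPKM 1 or more was 5, and it was 3 at a minimum of 5 and 7 at a minimum of 0.1. At a minimum of 5 the lists held 11 other transcription factors, 6 ligands, 5 receptors, 4 modulators, 1 podocyte marker, 5 neural markers, and 0 markers of the proximal tubule, collecting duct, adrenal cortex, stromal fibroblasts or immune cells. At a minimum of 0.1 they held 4 proximal tubule, 1 loop of Henle and distal tubule, 3 collecting duct, 7 adrenal medulla and 3 stromal fibroblast markers. With no filter on low values the median log2 change of the collecting duct markers was 0.000 with either guide, against -0.61 for the 2 genes with mean FPKM at least 1.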
